A study of Mus musculus with 17 samples.

Results

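The genes of fatty acid uptake and binding were followed in mouse epididymal adipose tissue across 3 genotypes and 2 diets. They are the 8 genes Lpl, Gpihbp1, Cd36, Fabp4, Fabp5, Slc27a1, Slc27a4 and Vldlr, chosen by symbol, and every probe annotated to these symbols was taken. The array carried 16 such probes among 46237, and 14 of them passed the detection filter. All 8 genes were among the 17166 genes tested, each through its brightest probe.

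Fat reaches the adipocyte in lipoproteins and as free fatty acids bound to albumin. Lipoprotein lipase (Lpl) is carried to the capillary lumen by the endothelial protein GPIHBP1 and splits the triglyceride of lipoproteins there, and the VLDL receptor (Vldlr) holds lipoproteins at the cell surface. The fatty acids released cross membranes with the help of CD36 and the fatty acid transport proteins FATP1 (Slc27a1) and FATP4 (Slc27a4). Inside the cell they are bound by FABP4, the main fatty acid binding protein of adipocytes, and by FABP5. Macrophages and endothelial cells also make both.

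The 17 bead arrays carried total RNA of mice on the WBB6F1 background, a cross of WB and C57Bl/6. Cpa3+/+ mice are the wild type. Cpa3Cre/+ mice have Cre inserted in 1 copy of the gene of the mast cell enzyme carboxypeptidase A3, and are known to lack mast cells through toxicity of Cre in these cells, with fewer basophils as well. KitW/Wv mice have a pair of mutant alleles of the receptor gene Kit, and are known to have defects in blood formation, pigment and germ cells beside the absence of mast cells. Over 12 weeks each genotype ate either chow with 6% fat, labelled LFD, or a diet with 60% of its calories as fat, labelled HFD, and the tissue was collected following a 5 h fast. There were 2 arrays of Cpa3+/+ on HFD and 3 of every other group. Whether each array stands for a separate animal is not stated, and a p-value then speaks of the scatter among these arrays alone, some of which may be technical.

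The median intensity of an array lay between 98.6 and 107.4 and the share of probes with detection between 46.9% and 51.7%. Cpa3 levels were 7.32 to 8.54 on the log2 scale in Cpa3+/+ and 4.09 to 5.21 in the mutants, as the labels would have it, while Kit, at 6.76 to 8.77 in all groups, checks no label. The adipocyte hormone gene Adipoq was detected on all 17 arrays. A few arrays stood apart by markers of other tissues, given as the mean log2 deviation of a marker list from its mean over all arrays. Epididymis and testis markers were at 3.16 on Cpa3+/+ LFD array 3 and at 0.53 or below on every other array. Skeletal muscle markers were at 1.50 on Cpa3Cre/+ LFD array 2 and 1.56 on KitW/Wv HFD array 1, and at 0.48 or below elsewhere. Called differences of single genes in the 8 genes and the pathway lists are given with and without these 3 arrays.

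All levels below are normalized log2 intensities, and a difference of 1 is a doubling of the intensity. Values of different probes are not compared. A difference is called where limma's p-value, adjusted by Benjamini-Hochberg over all 17166 genes, is below 0.05. Intensity was raised by an offset of 16 before the logarithm, so fold changes of dim probes are understated.

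**Figure D1:**
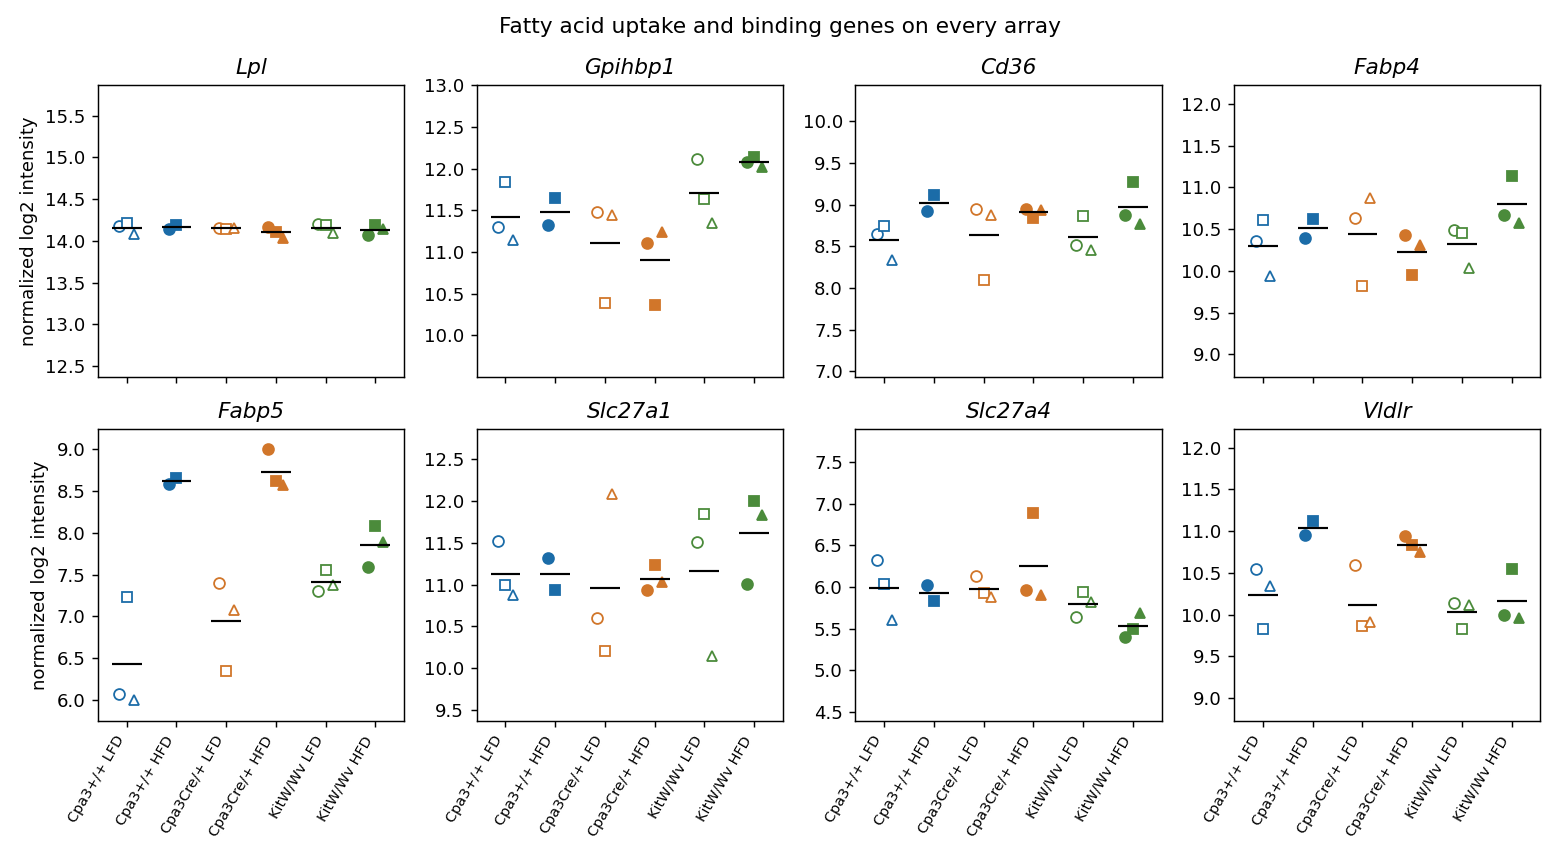
Normalized log2 intensity (y axis) of the 8 genes on every array, in 6 groups by genotype and diet (x axis). Open symbols are LFD and filled symbols HFD, the shape is the replicate number (circle 1, square 2, triangle 3), and the bar is the group mean. Fabp5 in Cpa3+/+ and Cpa3Cre/+ stands at 8.57 to 9.00 on HFD and at 5.99 to 7.40 on LFD, while Lpl lies between 14.03 and 14.21 on all arrays.

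Of the 8 genes, Fabp5 was the only one past the threshold for diet, and it rose in Cpa3+/+ and in Cpa3Cre/+ on HFD. In Cpa3+/+ its levels were 6.07, 7.23 and 5.99 on LFD arrays 1 to 3, and 8.58 and 8.66 on HFD arrays 1 and 2. The groups did not overlap. The difference was 2.19 (SE 0.35, 95% interval 1.45 to 2.93, n = 2 against 3), a 4.56-fold higher intensity, with an adjusted p of 0.00194 by limma. In Cpa3Cre/+ the levels were 7.40, 6.34 and 7.08 on LFD and 9.00, 8.62 and 8.57 on HFD. These groups did not overlap either, and the difference was 1.79 (SE 0.31, 95% interval 1.13 to 2.45, n = 3 against 3), or 3.45-fold, with an adjusted p of 0.0018 by limma. In tissue RNA, more RNA per cell and more cells that hold it cannot be told apart.

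In KitW/Wv the same probe had levels of 7.30, 7.56 and 7.38 on LFD and of 7.59, 8.08 and 7.89 on HFD. All 3 HFD arrays lay above all 3 LFD arrays, but by little, and the difference of 0.44 (SE 0.31, 95% interval -0.22 to 1.10) was not called (adjusted p = 1.00 by limma). The diet difference was smaller in KitW/Wv than in Cpa3+/+ by 1.75 (SE 0.46), with an unadjusted p of 0.00198 and an adjusted p of 0.113 by limma. Against Cpa3Cre/+ it was smaller by 1.35 (SE 0.44, adjusted p = 0.150 by limma). Neither interaction was called, so a difference of the Fabp5 diet response between genotypes is not shown at this threshold. Without array Cpa3+/+ LFD 2, which held the highest Fabp5 level of its group, the former was -2.15 and called (adjusted p = 0.0199), as it was with array weights (0.0388). The latter was called with median scaling (-1.52, adjusted p = 0.0306), array weights (0.0316) and the authors' normalized values (0.0477). Without the 3 arrays with markers of other tissues they were -1.40 (0.126) and -0.92 (0.292).

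The order of the Fabp5 group means ran from Cpa3Cre/+ HFD (8.73) and Cpa3+/+ HFD (8.62) through KitW/Wv HFD (7.85) and KitW/Wv LFD (7.41) to Cpa3Cre/+ LFD (6.94) and Cpa3+/+ LFD (6.43). The SD within groups was 0.41. No step between neighbours in this order was called, and the largest step, of 0.77 between Cpa3+/+ HFD and KitW/Wv HFD, had an adjusted p of 0.325. The 2.30 between the highest and the lowest mean exceeded that of 98.2% of all genes. On LFD, KitW/Wv had no array below the highest Cpa3+/+ array, with a difference of 0.98 (SE 0.31, unadjusted p = 0.0065, adjusted p = 0.774 by limma).

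The Fabp5 calls kept their sign under every alternative run. In Cpa3+/+ the call was lost where just the compared groups entered the fit (adjusted p = 0.0899), and the difference fell to 1.46 in the authors' normalized values. Without the 3 arrays that hold markers of other tissues, the differences were 1.97 in Cpa3+/+ and 1.49 in Cpa3Cre/+, both called. A second Fabp5 probe was not detected on any of the 17 arrays and adds nothing on the direction. RefSeq also lists a Fabp5 pseudogene, and whether the detected probe reads it was not tested.

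Macrophage markers moved with Fabp5. Of the 9 measured genes of 10 on a list for lipid-associated macrophages, 5 rose on HFD in Cpa3+/+ and 6 in Cpa3Cre/+. Their median differences were 1.89 and 2.47. In KitW/Wv 0 were called, and the differences ran from -0.30 to 2.50 (median 0.17). The mean deviation of this list was 1.26 to 1.31 on the Cpa3+/+ HFD arrays, 1.54 to 1.72 on Cpa3Cre/+ HFD, -0.29 to 0.15 on KitW/Wv HFD and -1.25 to -0.48 on LFD arrays. Of its defining genes, Itgax was detected on 5 arrays and Atp6v0d2 on 4. Of 12 general macrophage markers, 5 rose in Cpa3+/+ and 9 in Cpa3Cre/+. For all genes the shares called were 4.65% in Cpa3+/+ (3.44% higher) and 9.1% in Cpa3Cre/+ (5.88% higher). In KitW/Wv the share was 0.00583%, which is 1 gene. Cd68, a lysosomal protein of macrophages, rose by 2.61 (SE 0.40) and 3.62 (SE 0.36). Their part in the Fabp5 difference was not tested. Adipocyte markers moved in both directions. Of 10 measured, 1 rose and 1 fell in Cpa3+/+ (differences from -1.41 to 1.74, median -0.18), and 2 rose and 2 fell in Cpa3Cre/+ (-1.69 to 1.89, median -0.29). The extremes were in both genotypes Acvr1c, a receptor of the TGF-beta family that fell, and Lep, the gene of leptin, which rose; they are named after their values were seen.

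**Figure D2:**
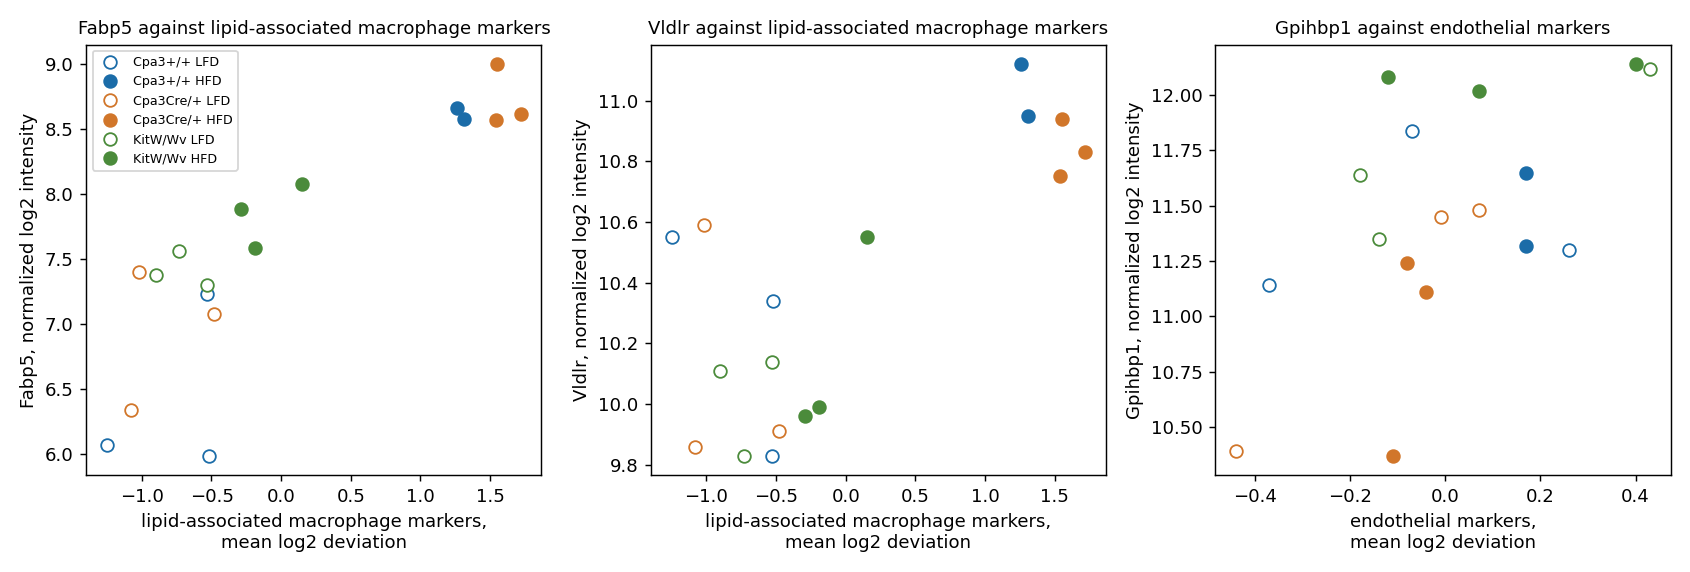
Normalized log2 intensity of Fabp5, Vldlr and Gpihbp1 (y axes) against the mean log2 deviation of a marker list (x axes), lipid-associated macrophages for the first pair and endothelial cells for Gpihbp1, with 1 point per array (n = 17, colours are genotypes, filled symbols HFD). The 5 HFD arrays of Cpa3+/+ and Cpa3Cre/+ form a cluster at lipid-associated macrophage list values of 1.26 and above. The Gpihbp1 panel has another x axis, with endothelial list values of -0.44 to 0.43, and cannot be compared in this.

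The genes most like Fabp5 over the 17 arrays were P2ry14, a receptor for UDP sugars (r = 0.95), Cdkn3, a cell cycle phosphatase (r = 0.94), and Atp6v1e1, a subunit of the vacuolar proton pump (r = 0.92). These r values include the differences between the 6 groups.

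Vldlr followed the same order of diets without a call. The VLDL receptor probe had levels of 10.55, 9.83 and 10.34 in Cpa3+/+ on LFD and of 10.95 and 11.12 on HFD. In Cpa3Cre/+ the levels were 10.59, 9.86 and 9.91 on LFD and 10.94, 10.83 and 10.75 on HFD. In both genotypes every HFD array lay above every LFD array. The differences were 0.80 (SE 0.26, adjusted p = 0.104 by limma) and 0.72 (SE 0.23, adjusted p = 0.0698 by limma), or 1.74-fold and 1.65-fold. In KitW/Wv the levels were 10.14, 9.83 and 10.11 on LFD and 9.99, 10.55 and 9.96 on HFD, which overlap, and the difference was 0.14 (SE 0.23, 95% interval -0.35 to 0.63). The interactions of KitW/Wv with Cpa3+/+ (-0.66) and with Cpa3Cre/+ (-0.58) had adjusted p-values of 0.504 and 0.507 by limma.

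Markers of other cells moved with Vldlr as well. Beside the macrophage lists given for Fabp5, stromal progenitor markers had 1 of 7 measured genes called higher on HFD in Cpa3+/+ (median 0.64), 2 in Cpa3Cre/+ (0.17) and 0 in KitW/Wv (-0.06). For all genes the shares called higher were 3.44%, 5.88% and 0.00583%. The mean deviation of that list was 0.42 to 0.63 on the Cpa3+/+ HFD arrays, 0.17 to 0.65 on Cpa3Cre/+ HFD and -0.59 to -0.02 on KitW/Wv HFD. Over the 17 arrays, group differences included, r to Vldlr was 0.76 for this list and 0.75 for lipid-associated macrophage markers. Their part in the Vldlr values was not tested.

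The Vldlr difference in Cpa3Cre/+ lies near the threshold and crossed it under several settings. It was 1.01 (adjusted p = 0.0354) with median scaling, 0.69 (0.04998) in the authors' normalized values, and 0.77 (0.0208) with array weights. Leaving out Cpa3Cre/+ LFD array 1, the highest of its group, gave 0.96 with an adjusted p of 0.0178.

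Vldlr was the gene with the most probes, 6 in all, which differ in what they report. The brightest and a further pair were detected on all 17 arrays and ran together, with r of 0.976 and 0.970 to the brightest. The differences of this pair for diet in Cpa3+/+ were 0.96 and 0.99, and in Cpa3Cre/+ 0.82 and 0.68. At the probe with 0.68 the diets overlapped in Cpa3Cre/+. The same probe came closest to a call, for diet in Cpa3+/+, with an adjusted p of 0.0505 by limma over the 25594 probes. Of these probes 3.77% were called in Cpa3+/+ and 7.57% in Cpa3Cre/+. Of the dim probes, 1 was detected on 10 arrays, 1 on 4 and 1 on none, with r of 0.21, 0.50 and -0.02 to the brightest. The first pair of these, near background, had diet differences of 0.87 and 0.75 in Cpa3+/+. In Cpa3Cre/+ they were 0.08 and 0.34, and none of these was called.

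Promoter sequences from RefSeq (GRCm38.p6), from 250 bases upstream to 50 downstream of a start site, were matched for 4 of the 8 genes, Cd36, Slc27a1, Slc27a4 and Vldlr, and those of Lpl, Gpihbp1, Fabp4 and Fabp5 were not analysed here. The sequences were searched on both strands for the direct repeat bound by PPAR with RXR (2 copies of AGGTCA with 1 base N between them), its unit (AGGTCA, which the repeat contains), the CCAAT box (CCAAT) and the TATA box (TATAAA). Vldlr is shown as the gene whose bright probes agree in the direction of the diet difference in both Cpa3 genotypes. Of its start sites, the one at chr19:27216770-27217069 on the plus strand has a CCAAT box on the opposite strand, 78 bases upstream of the start, which the capitals mark.
Vldlr: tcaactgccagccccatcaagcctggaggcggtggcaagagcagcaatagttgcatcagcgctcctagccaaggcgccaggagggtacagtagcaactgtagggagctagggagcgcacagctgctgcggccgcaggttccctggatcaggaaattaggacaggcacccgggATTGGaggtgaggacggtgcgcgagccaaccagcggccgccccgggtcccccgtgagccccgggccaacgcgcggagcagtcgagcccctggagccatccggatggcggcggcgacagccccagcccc
A CCAAT box is held by 37.4% of 32851 mouse promoters of this length, so the match is common.

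Cd36, which takes up long-chain fatty acids at the plasma membrane, had a higher mean on HFD in all 3 genotypes and was called in none. In Cpa3+/+ its levels were 8.65, 8.74 and 8.34 on LFD and 8.92 and 9.12 on HFD, which do not overlap, with a difference of 0.44 (SE 0.24, adjusted p = 0.384 by limma). In KitW/Wv they were 8.52, 8.86 and 8.46 on LFD and 8.87, 9.27 and 8.77 on HFD, with a difference of 0.35 (SE 0.22). In Cpa3Cre/+ they were 8.95, 8.10 and 8.87 on LFD and 8.95, 8.84 and 8.93 on HFD. Here LFD array 2, which carries muscle markers, stood far below the rest, and without it the difference of 0.26 (SE 0.22) became -0.01. The 3 HFD means, 8.90 to 9.02, lay above the 3 LFD means, 8.58 to 8.64, and no step in this order was called.

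The Cd36 promoter is shown because among the promoters matched it alone held a unit of the PPAR repeat. At chr5:17835847-17836146 on the minus strand, the capitals mark this unit on the opposite strand, 228 bases upstream of the start, and a CCAAT box 195 bases upstream.
Cd36: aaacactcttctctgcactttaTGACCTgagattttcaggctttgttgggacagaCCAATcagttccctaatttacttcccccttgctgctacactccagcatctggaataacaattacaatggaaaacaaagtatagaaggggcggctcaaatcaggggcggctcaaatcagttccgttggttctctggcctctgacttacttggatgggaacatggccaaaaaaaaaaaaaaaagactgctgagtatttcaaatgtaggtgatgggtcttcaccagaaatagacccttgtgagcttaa
The unit is held by 16.3% of all such promoters and the full repeat by 0.0396%, and the full repeat lay in none of the promoters of these genes. The TATA box, held by 13.6%, was not found in them either, and Slc27a1 held a CCAAT box in 2 promoters, 188 and 128 bases upstream. No binding was measured, and the letters in these windows say nothing on it.

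Lpl hardly varied. Its bright probe lay between 14.03 and 14.21 on all 17 arrays, the SD within groups was 0.056, and the group means spanned 0.06, less than for all but 0.0583% of genes. Diet differences were 0.01, -0.05 and -0.03 in Cpa3+/+, Cpa3Cre/+ and KitW/Wv, and all 95% intervals lay within -0.29 and 0.27. The deposited intensity of this probe was 17330 to 19264, at 79.1% to 88.6% of the brightest probe of the array and 11th to 38th in rank. Whether the signal still follows the amount of RNA at this brightness was not tested.

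A second Lpl probe, dim and detected on 15 of 17 arrays, lay near background. In Cpa3+/+ it had levels of 5.76, 5.51 and 4.66 on LFD and of 4.38 and 4.36 on HFD. The 2 arrays on which it was not detected are the whole Cpa3+/+ HFD group, so its level there is only an upper bound and no difference is given. In the other groups, where it was detected on every array, its means lay between 4.87 and 5.31. Its r to the bright probe, which itself spans only 0.18, was 0.40.

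Fabp4 and Slc27a1 showed no call for diet. Fabp4 levels were 10.36, 10.61 and 9.94 on LFD and 10.40 and 10.62 on HFD in Cpa3+/+. In Cpa3Cre/+ they were 10.64, 9.82 and 10.87 on LFD and 10.43, 9.95 and 10.31 on HFD. In KitW/Wv they were 10.49, 10.45 and 10.04 on LFD and 10.67, 11.14 and 10.58 on HFD, the only genotype in which the diets did not overlap, and the difference was 0.48 (SE 0.27). Slc27a1 levels ranged from 10.14 to 12.09 over the 17 arrays with an SD within groups of 0.64, as large as the 0.65 between its group means. Both of these extremes were LFD arrays, KitW/Wv 3 and Cpa3Cre/+ 3. The 95% intervals of the Slc27a1 diet difference were -1.13 to 1.12 in Cpa3+/+, -0.91 to 1.11 in Cpa3Cre/+ and -0.56 to 1.45 in KitW/Wv.

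For the diet, 1 of 8 genes was called in Cpa3+/+ and 1 of 8 in Cpa3Cre/+, both Fabp5 and both higher, and 0 in KitW/Wv. Of all genes, 4.65% were called in Cpa3+/+ (3.44% higher) and 9.1% in Cpa3Cre/+ (5.88% higher). An unadjusted p below 0.05 was found for 2 of 8 genes in each, Fabp5 and Vldlr, beside 17.4% and 20.9% of all genes. In KitW/Wv 0.00583% were called, which is 1 gene, and 3.4% had an unadjusted p below 0.05, as had 0 of the 8. The median differences of the 8 genes were 0.13, 0.18 and 0.36, beside -0.02, -0.02 and 0.00 over all genes. HFD arrays lay wholly above LFD arrays for 3 of 8 genes in Cpa3+/+ (17.6% of all genes), 2 in Cpa3Cre/+ (12.6%) and 2 in KitW/Wv (5.24%), and wholly below for none of the 8. In either direction the diets did not overlap for 33.5%, 24.1% and 9.9% of all genes. The called genes of all kinds divided into 1010 higher and 552 lower in Cpa3Cre/+, but into 1554 and 239 with median scaling.

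**Figure D3:**
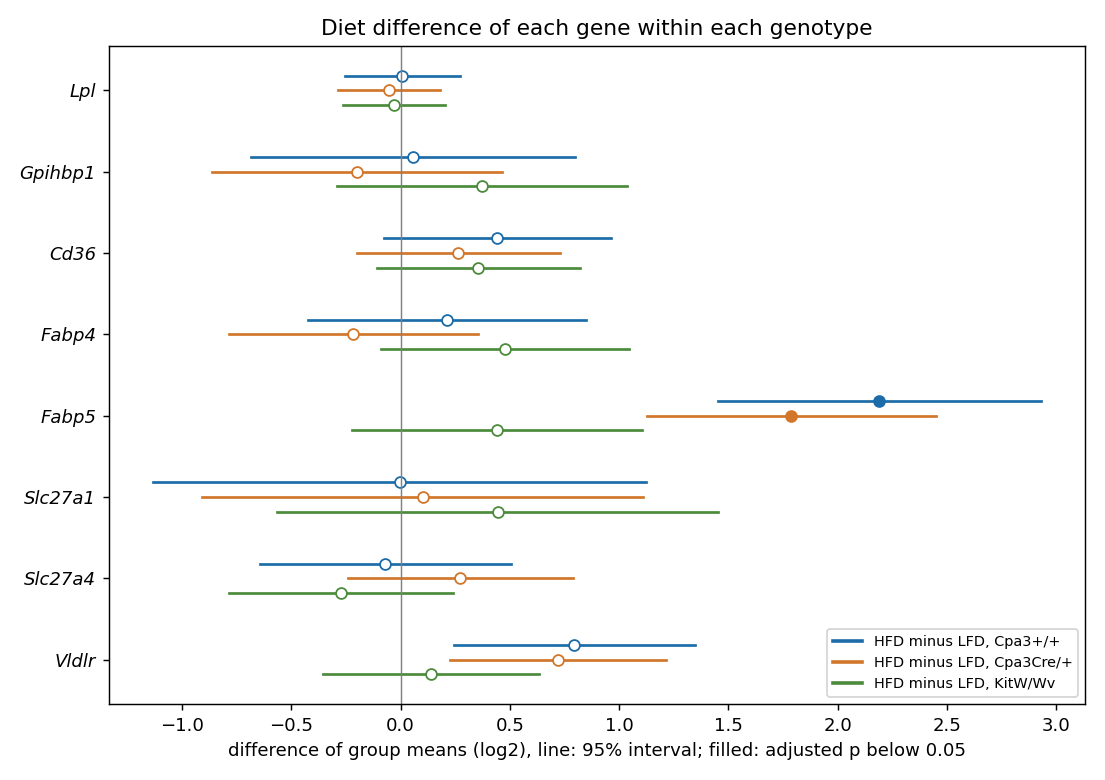
Difference HFD minus LFD of each gene (x axis, log2) in the 3 genotypes, with 95% intervals as lines and filled points for an adjusted p below 0.05. Fabp5 at 2.19 and 1.79 is filled, and Vldlr at 0.80 and 0.72 has intervals above 0 but open points.

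On HFD the genotypes were compared in pairs, which share arrays, so the comparisons are not independent. Gpihbp1, the endothelial carrier and anchor of lipoprotein lipase, was higher in KitW/Wv than in Cpa3Cre/+. Its levels were 12.08, 12.14 and 12.02 in KitW/Wv, 11.11, 10.37 and 11.24 in Cpa3Cre/+, and 11.32 and 11.65 in Cpa3+/+. The KitW/Wv arrays lay close together above all 5 others. The difference to Cpa3Cre/+ was 1.17 (SE 0.31, 95% interval 0.51 to 1.84, n = 3 against 3), a 2.26-fold higher intensity with an adjusted p of 0.0311 by limma. The difference to Cpa3+/+ was 0.60 (SE 0.35, adjusted p = 0.491 by limma), and Cpa3Cre/+ stood 0.58 below Cpa3+/+ (SE 0.35, adjusted p = 0.999 by limma).

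The Gpihbp1 call is fragile, and it was kept in only 1 of 6 fits that each left out 1 of the arrays compared. Without Cpa3Cre/+ HFD array 2, the lowest, the difference was 0.90 with an adjusted p of 0.152, and the call was also lost without Cpa3Cre/+ HFD array 1 (0.0584) or KitW/Wv HFD array 1 (0.0756), 2 (0.0895) or 3 (0.0845). It was lost with median scaling too, at 0.91 (0.0914), while without the 3 arrays with markers of other tissues it was 1.18 (0.0283). A second probe, detected on all 17 arrays with r of 0.948 to the first, gave 0.95 (SE 0.38) without a call (adjusted p = 0.173 by limma over the 25594 probes, of which 6.49% were called).

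On LFD the Gpihbp1 levels were 12.12, 11.64 and 11.35 in KitW/Wv, 11.48, 10.39 and 11.45 in Cpa3Cre/+, and 11.30, 11.84 and 11.14 in Cpa3+/+. These overlap, and the difference of KitW/Wv to Cpa3Cre/+ was 0.60 (SE 0.31, adjusted p = 1.00 by limma). The diet differences were 0.06 in Cpa3+/+, -0.20 in Cpa3Cre/+ and 0.37 in KitW/Wv, with SEs of 0.35, 0.31 and 0.31. The means fell in the order KitW/Wv HFD (12.08), KitW/Wv LFD (11.71), Cpa3+/+ HFD (11.48), Cpa3+/+ LFD (11.43), Cpa3Cre/+ LFD (11.11) and Cpa3Cre/+ HFD (10.91), with no step between neighbours called where a comparison held that pair.

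Of 12 measured endothelial markers, 0 passed the threshold between KitW/Wv and Cpa3Cre/+ on HFD, beside 7.85% of all genes. Their median difference was 0.20, beside 0.00 over all genes. The mean deviation was -0.12 to 0.40 on the KitW/Wv HFD arrays, -0.11 to -0.04 on Cpa3Cre/+ HFD and 0.17 on both Cpa3+/+ HFD arrays. Pecam1, the adhesion molecule of endothelial junctions, differed by 0.54 (SE 0.26, adjusted p = 0.252 by limma). Erg, a transcription factor of endothelial cells, was detected on 6 arrays. Lists of other cells held calls for the same pair. Of 6 measured B cell markers 4 were higher in KitW/Wv (median difference 1.78). The list's mean deviation was 2.38 on KitW/Wv HFD array 1, which also carries muscle markers. On KitW/Wv HFD arrays 2 and 3 it was 0.23 and 0.97, and on the HFD arrays of Cpa3Cre/+ -0.49 to -0.26. Lower in KitW/Wv were 6 of 9 lipid-associated macrophage markers (median -2.35), 6 of 12 macrophage markers (-0.84) and 3 of 7 stromal progenitor markers (-0.79). Red blood cell markers had a median difference of 1.71 over 4 measured genes, with 0 called by limma. Over the 17 arrays, group differences included, r to Gpihbp1 was 0.59 for endothelial markers and 0.55 for red blood cell markers. It was 0.48 for B cell markers and -0.58 for stromal progenitor markers. The part of these lists in the Gpihbp1 difference was not tested.

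The genes most like Gpihbp1 over the 17 arrays, group differences included, were Adgrl4, an adhesion receptor of endothelial cells (r = 0.90), Gimap6, a GTPase of immune cells (r = 0.89), and Cnep1r1, a subunit of a nuclear envelope phosphatase (r = 0.89).

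Fabp5, Vldlr and Slc27a4 stood lower in KitW/Wv than in Cpa3Cre/+ on HFD, with no overlap of arrays and no call. The macrophage, lipid-associated macrophage and stromal progenitor markers given beside Gpihbp1 were lower for the same pair, and their part in these values was not tested. The Fabp5 difference was -0.87 (SE 0.31, adjusted p = 0.107 by limma), with all 3 KitW/Wv arrays below 8.57, the lowest of Cpa3Cre/+. It was called with median scaling (-1.12, adjusted p = 0.0106), without background correction (0.0326), in the authors' normalized values (0.0232), with array weights (0.00423) and with only these groups in the fit (0.0358). For Vldlr the difference was -0.67 (SE 0.23, adjusted p = 0.0953), and against Cpa3+/+ it was -0.87 (SE 0.26, adjusted p = 0.104). Array weights brought both past the threshold (0.0087 and 0.0138).

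Slc27a4 encodes FATP4, which couples uptake to the activation of fatty acids. Its levels on HFD were 5.40, 5.50 and 5.69 in KitW/Wv, 5.96, 6.89 and 5.91 in Cpa3Cre/+, and 6.02 and 5.83 in Cpa3+/+. The KitW/Wv arrays lay below all 5 others, and 1 array of Cpa3Cre/+ stood far above its group. The difference to Cpa3Cre/+ was -0.72 (SE 0.24, adjusted p = 0.0835 by limma), and without that array, Cpa3Cre/+ HFD 2, it was -0.41 (0.329). With median scaling it was called, at -0.93 (0.0301). On LFD the levels were 5.61 to 6.33 in Cpa3+/+, 5.88 to 6.13 in Cpa3Cre/+ and 5.64 to 5.94 in KitW/Wv, which overlap.

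Fabp4 was the other gene with higher levels on all KitW/Wv arrays than on all Cpa3Cre/+ arrays on HFD. The difference was 0.57 (SE 0.27), with an unadjusted p of 0.049 and an adjusted p of 0.236 by limma. Lpl (0.03, SE 0.11), Cd36 (0.06, SE 0.22) and Slc27a1 (0.55, SE 0.47) overlapped between these groups.

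Between KitW/Wv and Cpa3Cre/+ on HFD, 1 of 8 genes was called, Gpihbp1, beside 7.85% of all genes (2.99% higher), and 5 of 8 had an unadjusted p below 0.05, beside 20.9%. All genes called divided into 513 higher and 835 lower, and into 264 and 1339 with median scaling. Arrays did not overlap for 5 of 8 genes, 2 higher and 3 lower, beside 29% of all genes. Between KitW/Wv and Cpa3+/+ on HFD 0 of 8 genes were called by limma, beside 2.36%, and 2 had an unadjusted p below 0.05, beside 14.5%. Arrays did not overlap for 4 of 8 genes, beside 37.7%.

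Between Cpa3Cre/+ and Cpa3+/+, the genotypes with a functional Kit gene, 0 of 8 genes were called on either diet by limma, beside 0.0408% on HFD and 0.035% on LFD, and 0 had an unadjusted p below 0.05, beside 4.86% and 3.47%. Arrays did not overlap on HFD for 2 of 8, Gpihbp1 and Vldlr, both lower in Cpa3Cre/+, beside 25.5%, and on LFD for 0 of 8, beside 6.01%. On LFD 0 of 8 were called between KitW/Wv and Cpa3+/+, beside 0.0466%, with 1 unadjusted p below 0.05, that of Fabp5, beside 5.17%. Fabp5 was also the 1 gene of the 8 without overlap there, beside 8.48%. Between KitW/Wv and Cpa3Cre/+ 0 of 8 were called on LFD, as were 0% of all genes, and 0 had an unadjusted p below 0.05, beside 4.5%, and 0 of 8 were without overlap, beside 8.55%. In the 3 interactions 0 of 8 genes were called, beside 0%, 0.885% and 2.54%. Fabp5 alone had an unadjusted p below 0.05 there, in both interactions with KitW/Wv (11.8% and 13% of all genes), and none of the 8 did in that of Cpa3Cre/+ with Cpa3+/+ (4%).

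**Figure D4:**
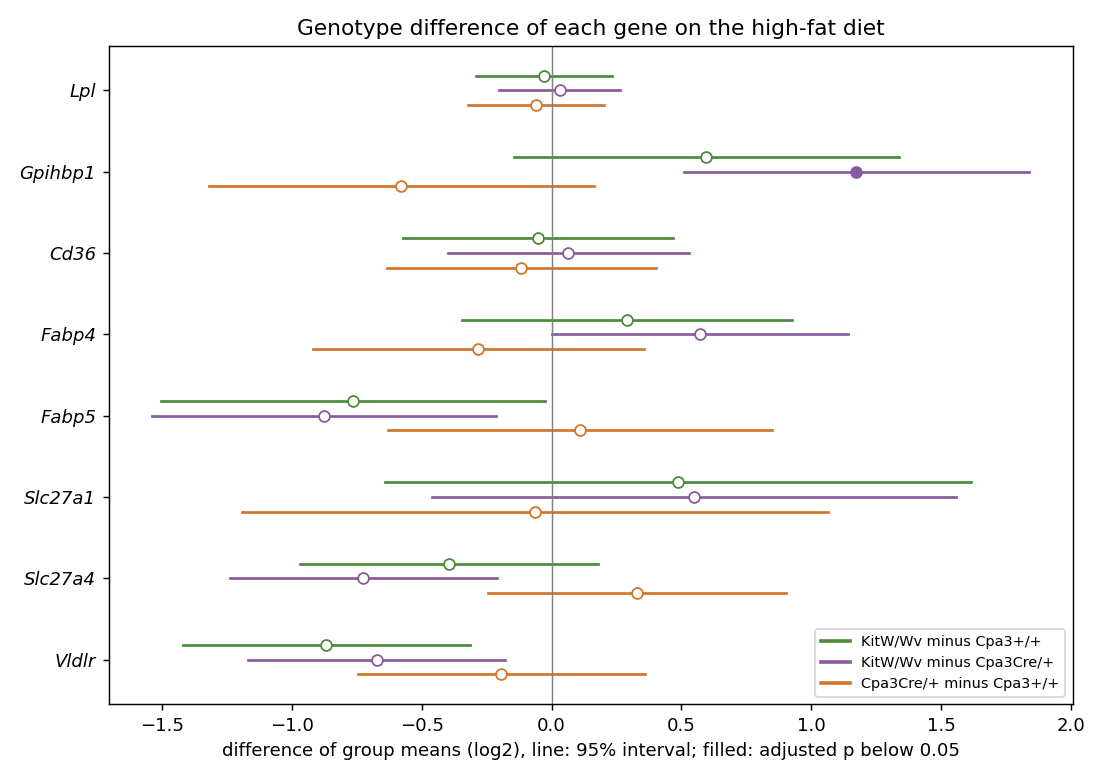
Difference between genotypes on HFD of each gene (x axis, log2), with 95% intervals as lines and filled points for an adjusted p below 0.05. The Gpihbp1 point for KitW/Wv minus Cpa3Cre/+, at 1.17, is filled, and Fabp5, Vldlr and Slc27a4 have open points below 0 for the same pair.

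Several of the 8 genes varied together from array to array within groups. After the group means were removed, r over the 17 arrays was 0.89 between Cd36 and Fabp4, 0.87 between Gpihbp1 and Fabp4, and 0.72 between Cd36 and Fabp5. With group means left in, these were 0.75, 0.78 and 0.71. Within groups r was also 0.72 between Fabp4 and Fabp5 and 0.68 between Gpihbp1 and Cd36. The lowest r within groups was -0.36, between Gpihbp1 and Slc27a4, which was -0.67 with the group means. Fabp5 and Vldlr had r of 0.60 with the group means and -0.01 without them. Cpa3Cre/+ LFD array 2 held the lowest Cd36 (8.10) and Fabp4 (9.82) of all arrays, and there mesothelial markers were at 1.32 and adipocyte markers at -0.37, their extremes over the 17 arrays. The SD of the Cpa3Cre/+ LFD group was 0.47 for Cd36 and 0.55 for Fabp4, the largest of the 6 groups. The r values were not computed without its array 2. The arrays share a normalization and their makeup of cells, whose part in these correlations was not tested.

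The other genes of the pathway were taken from 4 lists. Their counts stand beside shares of all genes called for diet of 4.65% in Cpa3+/+, 9.1% in Cpa3Cre/+ and 0.00583% in KitW/Wv. On HFD the shares were 2.36% between KitW/Wv and Cpa3+/+ and 7.85% between KitW/Wv and Cpa3Cre/+. Of 19 measured genes of 22 for fatty acid transport, binding and activation, 0 were called for diet in Cpa3+/+ and 1 in Cpa3Cre/+. This was Ffar4, the receptor for long-chain fatty acids on adipocytes, which fell by 1.55 (SE 0.35, adjusted p = 0.0107 by limma) from 9.33 to 10.96 on LFD to 8.27 to 9.11 on HFD. Without Cpa3Cre/+ LFD array 3 it was -1.19 with an adjusted p of 0.0537, and with just the compared groups in the fit the adjusted p was 0.107. It was -2.005 (0.00142) without the 3 arrays with markers of other tissues. In Cpa3+/+ the difference was -1.37 (SE 0.39, adjusted p = 0.063), and in KitW/Wv -0.34 (SE 0.35). No gene of this list was called between genotypes by limma.

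Among 17 measured genes of 20 around lipoprotein lipase, 2 rose with HFD in Cpa3+/+ and 2 in Cpa3Cre/+, beside 3.44% and 5.88% of all genes. Syndecan 1 (Sdc1), a heparan sulfate proteoglycan that binds lipoproteins and is also made by plasma cells, rose by 2.14 (SE 0.44) and 2.15 (SE 0.39), or 4.42-fold and 4.43-fold, with adjusted p-values of 0.0107 and 0.00265 by limma. It was detected on 15 of 17 arrays, and in Cpa3+/+ the call was lost without HFD array 1 (0.143) or 2 (0.0565). Apoc2, the activator of lipoprotein lipase, rose by 0.92 (SE 0.24, adjusted p = 0.0426) in Cpa3+/+. That call too was lost without HFD array 1 (0.391) or 2 (0.0815) or LFD array 1 (0.117) or 3 (0.0899). Pla2g15, a lysosomal phospholipase related in sequence to other lipid-handling acyltransferases and not a partner of the lipase, rose by 0.88 (SE 0.18, adjusted p = 0.00545) in Cpa3Cre/+. With the 3 arrays that carry markers of other tissues left out, Sdc1 differed by 2.44 (0.0036) and 2.50 (0.000992), Pla2g15 by 0.87 (0.0203) and Apoc2 by 0.84, no longer called (0.0636). In both genotypes the macrophage lists given beside Fabp5 also rose, and their part in these differences was not tested.

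In KitW/Wv 0 of these 17 genes were called for diet. On HFD, 2 were lower in KitW/Wv than in Cpa3+/+, Pla2g15 by -1.06 (SE 0.20, adjusted p = 0.0125 by limma) and Apoc2 with a 2.00-fold lower intensity (SE 0.24 on the log2 scale, adjusted p = 0.044). Both calls were lost without Cpa3+/+ HFD array 1 (0.186 and 0.434) or 2 (0.0819 and 0.102), and that of Apoc2 also without KitW/Wv HFD array 2 (0.129) or 3 (0.139). Against Cpa3Cre/+ 2 were lower, Sdc1 by -1.53 (SE 0.39, adjusted p = 0.0262) and Pla2g15 by -1.43 (SE 0.18, adjusted p = 0.000223). The Sdc1 call was lost without Cpa3Cre/+ HFD array 1 (0.0851) or 2 (0.13), or KitW/Wv HFD array 1 (0.0868) or 3 (0.082). All 4 calls held without the 3 arrays with markers of other tissues. Against Cpa3+/+ Pla2g15 was at -0.99 (0.0374) and Apoc2 at -1.20 (0.0242), and against Cpa3Cre/+ Sdc1 was at -1.40 (0.0352) and Pla2g15 at -1.36 (0.00168). The macrophage lists also held markers called lower in KitW/Wv than in either genotype on HFD, and their part was not tested. Angptl4, an inhibitor of the lipase, had diet differences of 0.25, 0.42 and 0.38 (SE 0.25, 0.22 and 0.22), and Lmf1, which the lipase needs to fold, of -0.40, -0.56 and -0.20 (SE 0.20, 0.18 and 0.18), none called.

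Of 9 measured lipoprotein receptors and partners of 13, 1 was called for diet, in Cpa3Cre/+, where 9.1% of all genes were called. Lrp1, an endocytic receptor for lipoprotein remnants, rose there by 0.76 (SE 0.22, adjusted p = 0.0393 by limma), and on HFD it was lower in KitW/Wv than in Cpa3Cre/+ by -0.88 (SE 0.22, adjusted p = 0.0211). The former was not called without Cpa3Cre/+ LFD array 2 (0.105) or 3 (0.144) or HFD array 1 (0.146), 2 (0.0846) or 3 (0.0622). The latter was not called without Cpa3Cre/+ HFD array 1 (0.0909) or 2 (0.0568), or KitW/Wv HFD array 1 (0.0883) or 2 (0.0538). Neither was called without the 3 arrays with markers of other tissues, at 0.70 (0.0864) and -0.71 (0.0856). The part of the macrophage lists in the Lrp1 differences was not tested.

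Of 20 measured genes of 21 for regulators, 0 were called for diet in Cpa3+/+ and 1 in Cpa3Cre/+, beside 4.65% and 9.1% of all genes. In Cpa3Cre/+ the endothelial growth factor Vegfa fell by 1.60 (SE 0.47, adjusted p = 0.0478 by limma). The call was lost without Cpa3Cre/+ LFD array 1 (0.153) or 3 (0.117) or HFD array 1 (0.0732), 2 (0.151) or 3 (0.121), as well as with median scaling (0.109) and in the authors' normalized values (0.0702). On HFD Vegfa was higher in KitW/Wv than in Cpa3Cre/+ by 2.54 (SE 0.47, adjusted p = 0.004) and than in Cpa3+/+ by 2.53 (SE 0.53, adjusted p = 0.021). Its levels were 10.54 to 10.91 in KitW/Wv and 7.98 to 8.55 in the other HFD groups, which is a 5.80-fold and a 5.78-fold difference. The call against Cpa3+/+ was lost without Cpa3+/+ HFD array 1 (0.195) or 2 (0.155), or KitW/Wv HFD array 1 (0.0648) or 3 (0.0752). The call against Cpa3Cre/+ held without any 1 array. Without the 3 arrays with markers of other tissues the diet difference of Vegfa was -1.89 (0.0314), and those between genotypes were 2.44 against Cpa3Cre/+ (0.0096) and 2.44 against Cpa3+/+ (0.0332).

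A further pair of regulators was higher in KitW/Wv than in Cpa3Cre/+ on HFD. Rxra, the partner of PPARs on DNA, differed by 1.29 (SE 0.30, adjusted p = 0.0162 by limma), and Vegfb, a growth factor reported in mice to raise endothelial fatty acid transport proteins, by 0.76 (SE 0.20, adjusted p = 0.033). Both calls were lost without Cpa3Cre/+ HFD array 1 (0.0558 and 0.0948) or 2 (0.0838 and 0.154), or KitW/Wv HFD array 2 (0.0713 and 0.0675) or 3 (0.0717 and 0.14), and that of Vegfb also without KitW/Wv HFD array 1 (0.0546). Both were called without the 3 arrays with markers of other tissues, Rxra at 1.55 (0.00293) and Vegfb at 0.83 (0.026). Pparg, which drives many genes of fat uptake in adipocytes, differed by 0.46 (SE 0.34, adjusted p = 0.513) for this pair, and by -0.04, -0.15 and -0.31 between diets. The median difference of the 20 regulators for this pair was 0.43, beside 0.00 over all genes.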

How the data were processed

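Biotin-labelled total RNA from epididymal fat of mice was hybridised to 17 Illumina bead arrays, which were processed in GenomeStudio per the submitters' processing notes (version not given in the sources used here). Per the file headers, the deposited table that is not normalized holds a linear intensity and a detection p-value for each probe and array, and its formula for the p-value is not stated. The authors also deposited normalized values of unstated method, which were used after log2 as an alternative.

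The background was corrected with neqc of limma 3.58.1 in R 4.3.3 (offset 16), followed by quantile normalization and log2. A probe was kept if it had a symbol and was detected (p below 0.05) on 2 or more arrays, which left 25594, and each gene was read from its brightest probe (17166 genes). The model had a mean for each of 6 groups over all arrays (11 residual and 3.34 prior degrees of freedom) and gave 9 comparisons of 2 groups and 3 interactions. limma's moderated p-values were adjusted by Benjamini-Hochberg over all genes at a threshold of 0.05. The 14 probes of the 8 genes that passed the filter, of 16, were also fitted among all 25594 kept probes. The number of arrays limits the precision. The code was tested on simulated data. Plots were made in matplotlib 3.10.9 under Python 3.11.15.

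The 8 genes, the pathway and marker lists, the 3 arrays left out as an alternative, and the rule for the genes named were chosen with earlier results of these data known. Named are the 8 genes, up to 4 called genes per pathway list and comparison, and 7 genes asked for by role. Also named are the 3 genes of highest r to each of the 8 that was called, clone and model numbers left out. Outside this rule are Cpa3 and Kit, and the marker genes Itgax, Atp6v0d2, Erg, Acvr1c and Lep. Alternatives changed background correction, offset, scaling, filter, probe choice, weights, the samples in the fit and a replicate block. The labels do not say that equal replicate numbers pair samples. Over 40 pairs of arrays of equal number in different groups, deviations from the group means had a median r of 0.07 (-0.47 to 0.36). Over 80 pairs of different number the median was -0.03 (-0.43 to 0.54). These ranges overlap widely and do not settle whether the numbers pair samples.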

Additional observations from a re-analysis of the deposited data

Results flagged for a closer look

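The diet difference of Pla2g15, a lysosomal phospholipase, differed between KitW/Wv and Cpa3Cre/+ by -1.12 (SE 0.25, adjusted p = 0.0272 by limma's interaction test), since it was -0.23 in KitW/Wv and 0.88 in Cpa3Cre/+. Leaving out any of 8 arrays ended the call, with adjusted p-values of 0.0502 to 0.0816: Cpa3Cre/+ LFD 2 or 3, Cpa3Cre/+ HFD 1 or 2, KitW/Wv LFD 1 or 3 and KitW/Wv HFD 1 or 3. Without the 3 arrays with markers of other tissues it was -1.03 (adjusted p = 0.082).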

How the results depend on the processing

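Of 1736 differences of the 8 genes over all alternatives, 1687 were counted as unchanged. These stayed called with the same sign, or stayed uncalled and moved by less than the SD within groups, whatever their sign. A further 25 stayed uncalled and moved by that SD or more. Another 17 became called, 7 lost their call and 0 reversed as called values. With just the compared groups in the fit, the diet in Cpa3+/+ gave 127 of 17166 genes and 0 of the 8. The diet in Cpa3Cre/+ gave 767 genes, the diet in KitW/Wv 0, and Cpa3Cre/+ against Cpa3+/+ on LFD 2. For KitW/Wv against Cpa3Cre/+ on HFD it was 1402 genes and 2 of the 8. With array weights, 52 genes were called between Cpa3Cre/+ and Cpa3+/+ on HFD. On that diet 1454 (1 of the 8) were called between KitW/Wv and Cpa3+/+, and 3034 (3 of the 8) between KitW/Wv and Cpa3Cre/+. In the interactions of KitW/Wv with Cpa3+/+ and with Cpa3Cre/+ array weights gave 268 and 797 genes (1 of the 8 each). They gave 2 genes for the diet in KitW/Wv, and 2243 (2 of the 8) for the diet in Cpa3Cre/+. Median scaling gave 2 of the 8 for the diet in Cpa3Cre/+, beside 1793 of 17166 genes. It gave 2 of the 8 for KitW/Wv against Cpa3Cre/+ on HFD, beside 1603 genes, and 1 in the interaction of these genotypes, beside 524. In the interaction of KitW/Wv and Cpa3+/+ it gave 89 genes, and 2 genes for the diet in KitW/Wv. The authors' normalized values gave the same 3 counts of the 8 (2, 2 and 1), beside 1706, 1548 and 570 genes. For the diet in KitW/Wv they gave 0 genes, as did no filter. No background correction gave 2 of the 8 for KitW/Wv against Cpa3Cre/+ on HFD, beside 1554 genes. Detection on at least 9 arrays left 2 genes for Cpa3Cre/+ against Cpa3+/+ on each diet and 3 for KitW/Wv against Cpa3+/+ on LFD. Without the 3 arrays with markers of other tissues, 315 genes were called in the interaction of KitW/Wv and Cpa3+/+.

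Leaving out 1 array at a time gave 229 to 861 genes for the diet in Cpa3+/+ (1 of the 8 each time), 946 to 1415 in Cpa3Cre/+ (1 to 2 of the 8) and 0 to 2 in KitW/Wv. On HFD it gave 5 to 6 for Cpa3Cre/+ against Cpa3+/+, 63 to 306 for KitW/Wv against Cpa3+/+ and 682 to 1212 for KitW/Wv against Cpa3Cre/+ (0 to 1 of the 8). On LFD it gave 6 to 8, 7 to 9 and 0 in that order, and in the interactions 0, 27 to 194 (0 to 1 of the 8) and 303 to 474.

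The replicate block, for numbers not said to pair the samples, moved the interaction of KitW/Wv and Cpa3+/+ from 152 to 96 genes and changed no call of the 8 genes. Among pathway genes it ended the calls of Apoc2 for diet in Cpa3+/+ (adjusted p = 0.0668) and against Cpa3+/+ (0.0742), of Lrp1 for diet (0.0504) and of the Pla2g15 interaction (0.0507). The fit with just the compared groups ended those of Apoc2 (0.183 and 0.116), Sdc1 in Cpa3+/+ (0.1), Lrp1 for diet (0.0963) and Vegfb (0.0653), and median scaling those of Apoc2 (0.0505 and 0.0575) and Vegfb (0.117). Leaving out the 3 arrays ended those of Apoc2 for diet (0.0636), Lrp1 (0.0864 for diet and 0.0856 between genotypes) and the Pla2g15 interaction (0.082). A slide block was not run, since the headers give no slide. The cause of these changes was not tested.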
